A study of Mus musculus with 34 samples.

Results

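The type I interferon-stimulated genes described here are 37 genes, picked by symbol from a list of genes that interferon induces, and all 37 were found in both count tables, which hold 52550 genes for the main set and 25498 for batch 1. RNA sequencing measured their transcripts in macrophages that were grown from the bone marrow of mice over 6 days with 10 ng/ml of the growth factor M-CSF and then rested for 24 h. They then received 200 mg/dL of low-density lipoprotein (LDL) or vehicle for 24 h. Mice were 10 to 14 weeks old and all carried Vav-Cre, a recombinase active in blood cells. WT mice had Vav-Cre alone, Dnmt3aKO mice were Dnmt3afl/fl;Vav-Cre, Tet2KO mice were Tet2fl/fl;Vav-Cre, and Jak2VF mice were Jak2V617F/WT;Vav-Cre, which carries an activating allele of a cytokine receptor kinase. The main set held 3 libraries for each genotype and treatment, 24 in all. Batch 1 added 10 libraries, 3 vehicle and 2 LDL libraries each of WT and Tet2KO. Whether each library is a separate animal is not in the labels. The p-values therefore rest on the scatter among libraries alone, which may be technical.

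Type I interferons are secreted proteins that bind the receptor chains Ifnar1 and Ifnar2, whose kinases Jak1 and Tyk2 phosphorylate transcription factors such as Stat2. Stat2 and Irf9 are parts of a complex that binds interferon-stimulated response elements and switches on genes that sense viral nucleic acid, block translation of viral RNA and restrain viral replication. Macrophages hold many of these genes at a low resting level that depends on small amounts of interferon. Irf7, itself an interferon-stimulated gene, drives transcription of interferon genes and so feeds the response forward.

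Promoters of some members show a motif of the element that defines the family. RefSeq promoter windows (GRCm38.p6, 250 bases before to 50 bases after the start of a transcript) were found for 26 of the 37 genes. A response element motif, GAAA followed after any 2 bases by GAAA again, was searched on both strands (TTTC, any 2 bases, TTTC on the other), with overlapping matches counted. It was present in windows of 13 of these 26 genes (50%) and of 1079 of 27025 genes in all (3.99%). TTCNNNGAA, the same on both strands, was in windows of 5 members (19.2%) against 9.6% of all genes. A match is a run of letters and not a measured binding site. The 4 windows shown were picked from those with a match. Windows of Irf7, Cmpk2, Epsti1 and Ifit2, which the results also name, held 0 matches. Ifit1 (chr19:34640639-34640938, plus strand) and Ifit3 (chr19:34583279-34583578, plus strand) lie in a cluster of related genes, Isg15 (chr4:156200769-156201068, minus strand) holds 3 overlapping matches, and Rsad2 (chr12:26456403-26456702, minus strand) holds 1. All are written 5′ to 3′ along the gene, with capitals marking the motif on either strand.
Ifit1: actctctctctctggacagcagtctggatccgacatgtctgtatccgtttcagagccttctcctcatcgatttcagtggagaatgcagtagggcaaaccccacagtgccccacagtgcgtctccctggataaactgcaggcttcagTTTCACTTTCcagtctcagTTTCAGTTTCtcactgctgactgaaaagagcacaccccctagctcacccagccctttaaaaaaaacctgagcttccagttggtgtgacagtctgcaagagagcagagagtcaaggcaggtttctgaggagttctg
Ifit3: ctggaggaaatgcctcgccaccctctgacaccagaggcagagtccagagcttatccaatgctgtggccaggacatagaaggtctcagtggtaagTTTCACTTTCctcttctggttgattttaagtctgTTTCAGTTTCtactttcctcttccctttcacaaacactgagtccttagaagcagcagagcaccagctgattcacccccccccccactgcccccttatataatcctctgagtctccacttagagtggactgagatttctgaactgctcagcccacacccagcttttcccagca
Isg15: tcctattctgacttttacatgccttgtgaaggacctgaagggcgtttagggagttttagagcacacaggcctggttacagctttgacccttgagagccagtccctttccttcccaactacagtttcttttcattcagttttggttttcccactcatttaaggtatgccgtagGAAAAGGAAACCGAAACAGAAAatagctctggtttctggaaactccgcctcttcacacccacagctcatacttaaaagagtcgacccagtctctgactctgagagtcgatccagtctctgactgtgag
Rsad2: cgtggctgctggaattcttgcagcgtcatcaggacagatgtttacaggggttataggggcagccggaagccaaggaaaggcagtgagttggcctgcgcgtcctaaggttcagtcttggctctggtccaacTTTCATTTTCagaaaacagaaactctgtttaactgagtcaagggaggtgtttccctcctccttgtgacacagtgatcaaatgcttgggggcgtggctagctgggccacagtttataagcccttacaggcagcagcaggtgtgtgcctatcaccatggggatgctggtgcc
The matches began 104 and 85 bases before the start in Ifit1, 156 and 122 in Ifit3, 78, 72 and 66 in Isg15 and 120 in Rsad2. Other matches stood close to the start: GAAATGGAAA and GAAACTGAAA overlapped 20 and 14 bases before that of Oas1a, and GAAAACGAAA lay 75 bases before that of Oas3. Stat2 held TTTCAGTTTC 222 bases before its start, and Bst2 held GAAAATGAAA and GAAACTGAAA, overlapping, at 130 and 124. Mx1, Mx2, Oas2, Usp18, Dhx58, Zbp1, Rtp4, Parp9, Parp14, Ifi204 and Ifi27l2a had no window in the tables used.

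Libraries of the main set held 24105237 to 43904761 counts and those of batch 1 15171143 to 44449473. Levels are given as CPM, the count of a gene relative to the scaled library total. The macrophage genes Csf1r (1620 to 2970 CPM in the main set) and Adgre1 (492 to 1250) were high in every library, while the 5 stromal markers, which are no macrophage genes, summed to between 7490 and 15900 CPM in the main set and 385 and 3280 in batch 1. Dnmt3a held 27.6 to 36.6 CPM in Dnmt3aKO against 39.4 to 71.2 in WT, while Tet2 held 19.3 to 40.4 CPM in Tet2KO against 15.0 to 32.1 in WT, so the gene count does not test the Tet2KO label. Gfap, a brain gene, held 2.72 CPM in WT LDL library 3 and 4.26 in Tet2KO LDL library 3 and at most 0.713 in the others of the main set, while the summed brain markers were 105 and 121 CPM in these libraries and 69.7 to 115 in the others. In bulk RNA, fewer cells of a type and less RNA per cell cannot be told apart. A gene is called where the adjusted p of the edgeR quasi-likelihood test, over all genes tested, is under 0.05, and all 37 members passed the filter on low counts in both sets.

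Among themselves the members differed widely in level. Per kilobase of exon, a scale that allows genes to be compared, the mean over the main set was highest for Bst2 (tetherin, which holds virus particles at the cell surface) at 91.4 CPM per kilobase, Ifi27l2a, a small interferon-induced membrane protein, at 42.4, Oas1a, an oligoadenylate synthetase, at 24.7 and Ifi204, a DNA sensor, at 21.3. Levels per kilobase were lowest for Mx2 at 0.57, Mx1 at 1.25, the ISG15 ligase Herc6 at 1.37 and Ifi44 at 1.41. Mx1 and Mx2 are dynamin-like antiviral proteins, and the annotation lists Mx2 as a polymorphic pseudogene.

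The members also varied together between libraries of the same group. Variation within groups was already known when the set was chosen, so the spread given here is a description. Spread was taken as the pooled within-group standard deviation (SD) of log2 CPM, with a small offset added to CPM. In the main set it had a median of 0.41 over the members, from 0.16 to 0.71, against 0.18 over all genes tested. In batch 1 it was 0.71, from 0.35 to 1.40, against 0.20. Ifit3 (0.71), Ifit1 (0.64), Irf7 (0.64) and Zbp1 (0.63) spread most in the main set. Epsti1 (0.16), Parp9 (0.20), Irf9 (0.22) and Trim30a (0.22) spread least. Deviations from the group mean correlated between each member and the mean of the others with a median r of 0.92 over 24 libraries in the main set and 0.98 over 10 in batch 1, given as a description. The lowest were Isg20, an exonuclease, at 0.49 and Parp14 at 0.60.

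The geometric mean of the 37 genes shows which libraries stood apart. With vehicle it was 33.1, 24.0 and 31.1 CPM in WT libraries 1 to 3, 17.4, 18.6 and 18.1 in Dnmt3aKO, 30.9, 21.4 and 20.9 in Tet2KO, and 13.6, 16.5 and 14.0 in Jak2VF. With LDL it was 48.2, 16.7 and 16.9 CPM in WT, 15.5, 22.0 and 20.3 in Dnmt3aKO, 16.6, 16.4 and 18.7 in Tet2KO, and 17.7, 11.3 and 11.4 in Jak2VF. All 3 WT vehicle libraries were above every Dnmt3aKO and Jak2VF vehicle library, while WT LDL library 1 alone was far above the other LDL libraries. In batch 1 the values were 38.2, 46.2 and 22.7 CPM in WT and 46.3, 72.5 and 21.9 in Tet2KO with vehicle, and 26.4 and 22.8 in WT and 71.6 and 26.5 in Tet2KO with LDL.

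**Figure D1:**
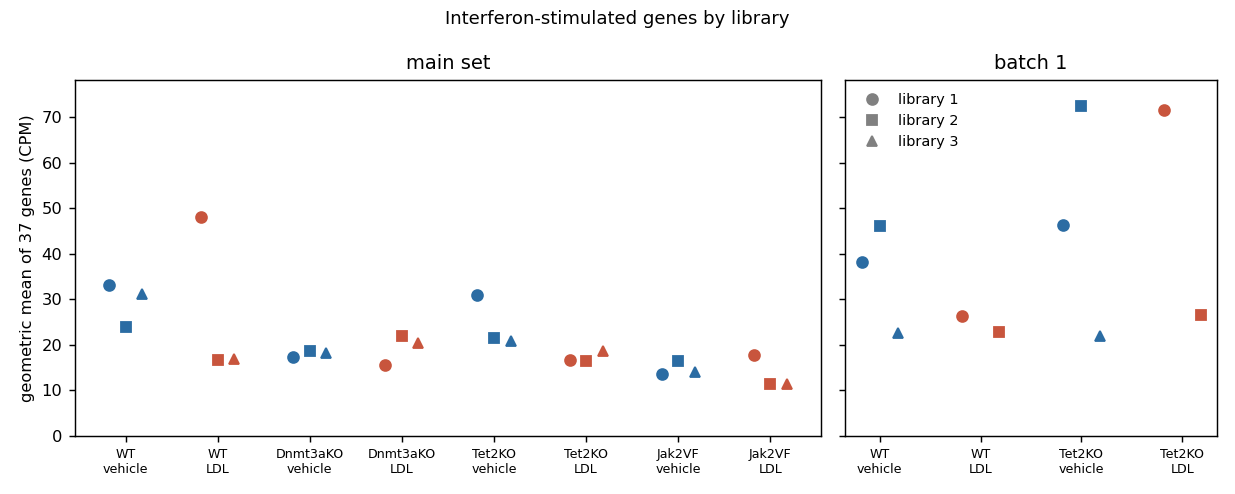
Geometric mean of the 37 genes in CPM (y axis) for each library of the main set (left) and batch 1 (right), blue with vehicle and red with LDL, the symbol giving the library number. WT LDL library 1 sits at 48.2 CPM against 16.7 and 16.9 in its group, and Tet2KO libraries of batch 1 run from 21.9 to 72.5.

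WT LDL library 1 held the highest value of its group for 37 of 37 members, where 40.4% of all genes tested were highest there, and 32 members exceeded the other libraries by 1.5-fold or more, as did 6.8% of all genes. Irf7 stood at 158 CPM in that library against 22.8 and 26.9 in the other WT LDL libraries. Ifit3 stood at 64.8 against 8.04 and 10.9, and Zbp1, a sensor of Z-form nucleic acid, at 42.7 against 5.70 and 6.81. The smallest gap was that of Epsti1, at 27.3 against 18.9 and 20.8. Summed markers in WT LDL libraries 1 to 3 were 216, 127 and 161 CPM for neutrophils and 255, 232 and 212 for monocytes, and their part in the difference was not tested. The members' counts and medians against the WT LDL group are therefore given with and without library 1. That library was picked by the members' own values, so the shift without it follows from the choice. Calls made without it are descriptions and do not test a change.

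**Figure D2:**
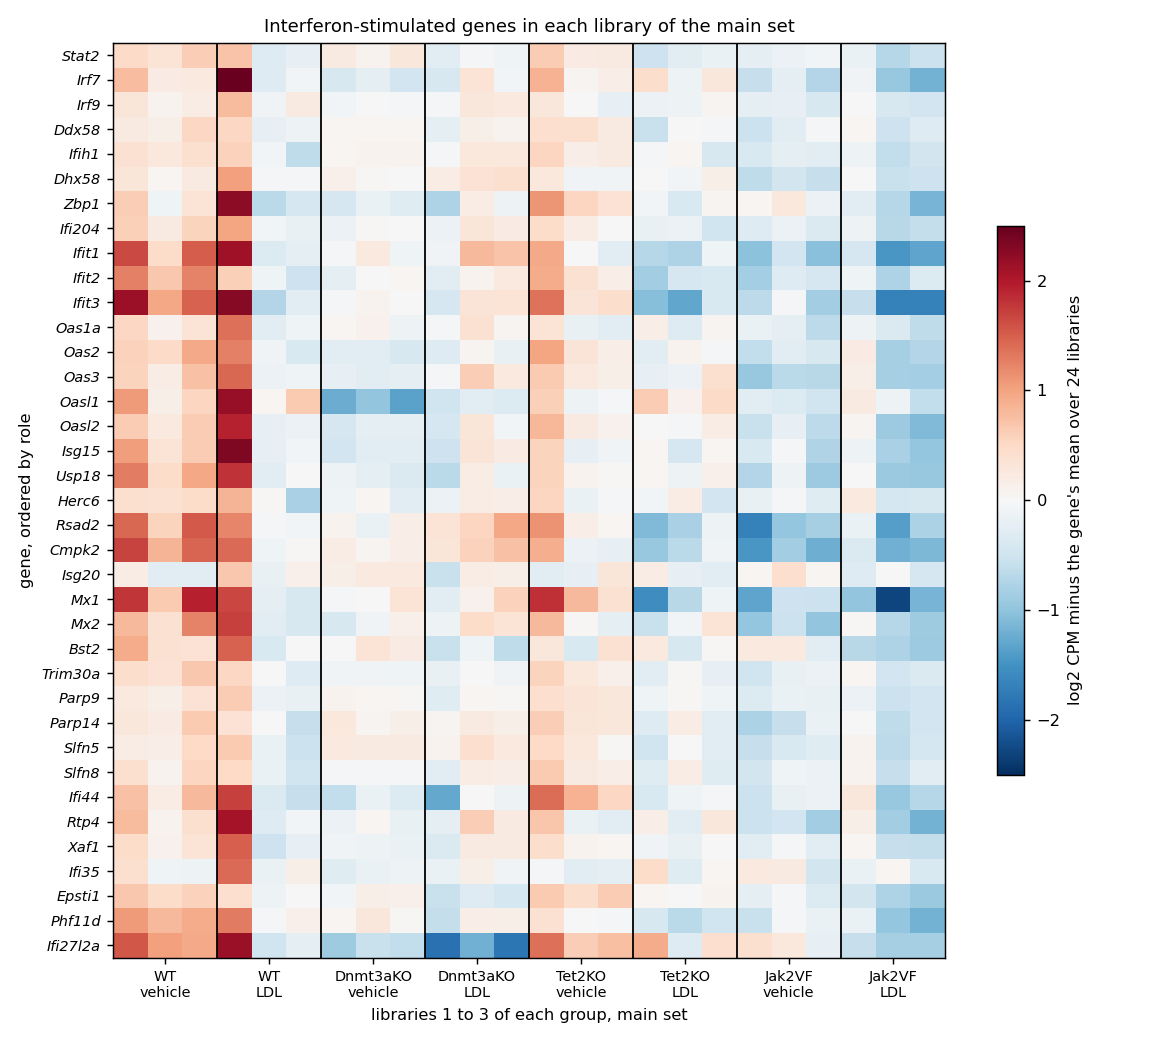
Log2 CPM of each member minus its mean over the 24 libraries of the main set, with genes ordered by role from top to bottom and libraries by group from left to right, red above and blue below the mean. WT LDL library 1 is the reddest column, WT vehicle and Tet2KO vehicle library 1 are mostly above the mean, and Jak2VF columns are mostly below it.

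Jak2VF macrophages held less of most members than WT with vehicle, the comparison that asks what the activating allele does at rest. Of 37 genes 19 fell, 0 rose and 18 did not pass, where 9.55% of all genes were called, 4.29% higher and 5.26% lower. The median log2 fold change was -0.88 over the members and 0.003 over all genes. All 3 Jak2VF libraries were below all 3 WT libraries for 34 of 37 members, against 13.7% of all genes tested. The count of called members was 6 to 14 when 1 library was left out, lowest without Jak2VF vehicle library 1, and 31 with no count filter. Summed neutrophil markers were 506 to 673 CPM in these Jak2VF libraries against 162 to 223 in WT, with 7 of 8 genes called higher, and 3 of 9 macrophage markers were lower. Stromal markers were higher for 3 of 5 (11900 to 15900 CPM against 10200 to 11300). Their part in the lower members was not tested.

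Of the 3 signalling genes 1 fell in Jak2VF with vehicle. Stat2, a subunit of the interferon factor, held 53.8, 57.3 and 60.5 CPM in Jak2VF against 88.8, 80.3 and 98.1 in WT (log2 fold change -0.64 ± 0.20, SE; adjusted p = 0.0446). Irf7 held 19.1, 23.8 and 17.0 CPM against 48.5, 32.5 and 33.8 (-0.94 ± 0.49, adjusted p = 0.264), and Irf9, the DNA-binding part of the factor, 39.1, 40.2 and 35.0 against 57.2, 49.0 and 52.7 (-0.48 ± 0.17, adjusted p = 0.0814). Neither Irf7 nor Irf9 passed, although their libraries did not overlap. Of the 5 nucleic acid sensors 3 fell: Dhx58 (-0.75 ± 0.21), a regulator of RNA sensing, Ifih1 (-0.65 ± 0.20), which senses long double-stranded RNA, and Ifi204 (-0.74 ± 0.23). Ifi204 held 58.4, 66.4 and 57.0 CPM in Jak2VF against 111, 85.1 and 107 in WT. Ddx58, the RNA sensor RIG-I (-0.58 ± 0.19, adjusted p = 0.0517), and Zbp1 (9.32, 10.8 and 8.16 CPM against 13.8, 8.36 and 11.5; adjusted p = 0.801) did not pass.

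Both enzymes of nucleotide metabolism among the members fell. Cmpk2, a mitochondrial nucleotide kinase, held 2.17, 3.29 and 2.55 CPM in Jak2VF against 19.4, 10.7 and 16.4 in WT (-2.54 ± 0.38, adjusted p = 0.00018). Its neighbour on chromosome 12, Rsad2 (viperin, which makes a chain-terminating nucleotide), held 3.47, 5.75 and 6.35 against 30.5, 16.5 and 32.5 (-2.36 ± 0.39, adjusted p = 0.000537). The lowest WT value was above the highest Jak2VF value in both genes, while Isg20 did not pass.

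All 3 IFIT genes, whose products bind viral RNA, fell. Ifit2 held 10.3, 14.8 and 13.8 CPM against 44.6, 29.6 and 44.0 in WT (-1.61 ± 0.25, adjusted p = 0.000343). Ifit1 fell by 2.12 ± 0.52 on the log2 scale and Ifit3 by 2.09 ± 0.56. Ifit1 and Ifit3 have near copies in the same cluster on chromosome 19, so their counts are uncertain. Mx1 held 1.44, 2.51 and 2.47 CPM against 12.4, 5.59 and 13.8 (-2.32 ± 0.51, adjusted p = 0.00532), at levels that are low in every group. Trim30a, a TRIM protein with close paralogs, held 49.7, 61.4 and 63.1 against 95.3, 89.8 and 112 (-0.77 ± 0.17, adjusted p = 0.00515). Mx2 also fell, at 0.935, 1.26 and 0.922 CPM against 3.19, 2.37 and 4.30, and Bst2 did not pass (adjusted p = 0.405).

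In the remaining families part of the members passed. Oas3 (-1.27 ± 0.34) and Oas2 (-1.11 ± 0.32) fell among the 5 genes of the oligoadenylate synthetase family, while Oas1a, Oasl1 and Oasl2 did not pass. Active synthetases of this family make the signal that activates RNase L. Oas1a, which has near copies, held 39.7, 38.1 and 28.2 CPM against 63.5, 47.9 and 56.6 (adjusted p = 0.187). Usp18, which removes ISG15 and blocks the receptor, fell (-1.49 ± 0.40), while the ubiquitin-like modifier Isg15 (10.1, 12.8 and 7.73 CPM against 27.1, 16.6 and 20.3, adjusted p = 0.168) and Herc6 (10.8, 12.0 and 9.98 against 16.2, 15.9 and 16.8, adjusted p = 0.221) did not pass. The libraries of both were nevertheless apart. Parp14, an ADP-ribosyltransferase, held 58.9, 68.4 and 90.2 CPM against 123, 118 and 160 in WT (-0.88 ± 0.21, adjusted p = 0.00906). Epsti1 held 17.5, 19.9 and 16.3 against 32.8, 28.3 and 30.7 (-0.77 ± 0.13, adjusted p = 0.000558), and Phf11d 4.65, 6.74 and 6.10 against 14.4, 12.0 and 13.0 (-1.17 ± 0.28, adjusted p = 0.0107). Slfn5 fell (-0.71 ± 0.22). Parp9 (32.8, 36.9 and 36.2 CPM against 49.1, 45.6 and 53.4, adjusted p = 0.059), Slfn8, Ifi44 (5.24, 6.63 and 6.89 against 12.6, 8.67 and 13.3, adjusted p = 0.25), Rtp4, Xaf1, Ifi35 and Ifi27l2a did not pass, which completes the 37. Oas1a, Herc6, Isg20, Slfn8, Ifi44, Xaf1 and Ifi35 were called in none of the 21 comparisons computed with edgeR.

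**Figure D3:**
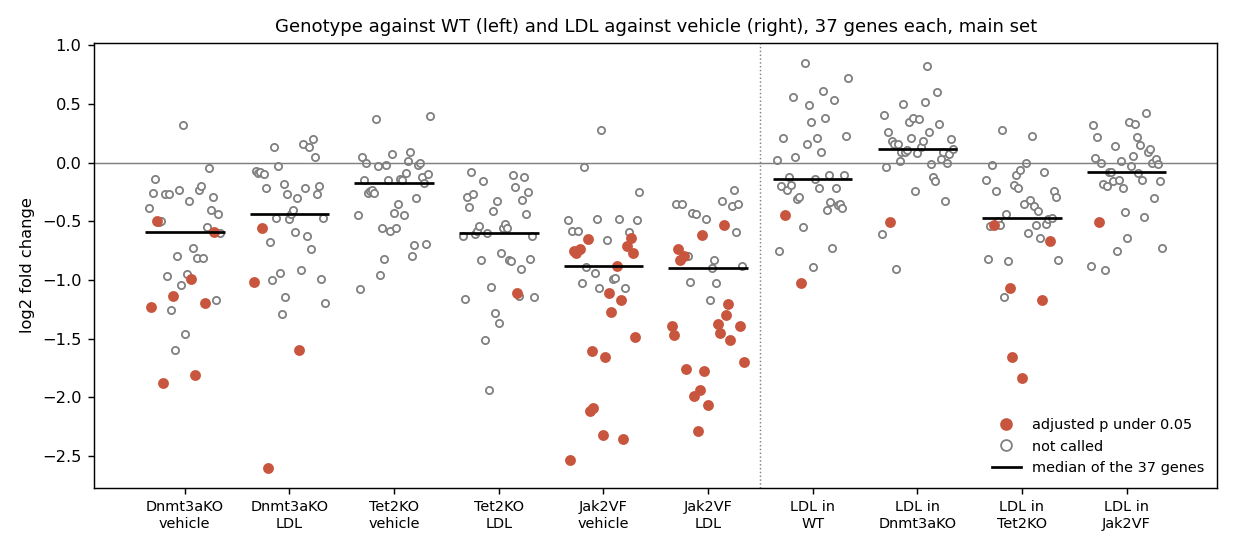
Log2 fold change of each member (points, filled red where the adjusted p is under 0.05) and the median of the 37 genes (bars) in 10 comparisons of the main set, genotype against WT on the left and LDL against vehicle on the right. Medians are lowest for Jak2VF, at -0.88 with vehicle and -0.90 with LDL, and 0.12 for LDL in Dnmt3aKO.

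With LDL, 20 of 37 members were lower in Jak2VF than in WT, 0 were higher and 17 did not pass, where 9.97% of all genes were called, 4.21% higher and 5.75% lower. The median log2 fold change was -0.90 over the members and -0.009 over all genes. Only 8 members had no overlap between the groups in this direction, against 13.5% of all genes. Without WT LDL library 1 the median was -0.30, 32 of 37 stayed below 0 and 1 was called, Epsti1 (-0.66, adjusted p = 0.00339). The count was 5 without Jak2VF LDL library 2, 1 without Jak2VF LDL library 3 and 0 when only these groups were fitted. Summed neutrophil markers were 300 to 355 CPM against 127 to 216 in WT, and 6 of 9 macrophage markers were lower. Their part was not tested.

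Several genes that did not pass with vehicle passed here. Irf7 held 26.6, 14.8 and 12.5 CPM in Jak2VF LDL libraries 1 to 3, against 158, 22.8 and 26.9 in WT (-1.94 ± 0.50, adjusted p = 0.018), and -0.47 without WT LDL library 1. Irf9 held 46.6, 35.3 and 33.4 against 79.8, 43.7 and 53.9 (-0.62 ± 0.17, adjusted p = 0.0243), and Stat2 did not pass (adjusted p = 0.0614). Bst2 held 47.3, 45.0 and 40.6 against 214, 58.8 and 75.8 (-1.39 ± 0.33, adjusted p = 0.0126), with every Jak2VF library below every WT library.

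Of the antiviral effectors, Ifit3 held 8.92, 4.15 and 4.12 CPM in Jak2VF with LDL (-2.29 ± 0.57, adjusted p = 0.0162), and Ifit1 6.93, 3.35 and 3.68 against 40.1, 7.33 and 7.83 in WT (-1.99 ± 0.52, adjusted p = 0.0203). Mx1 held 1.80, 0.73 and 1.59 against 11.3, 3.03 and 2.72 (-2.07 ± 0.54), and Cmpk2 4.67, 2.59 and 2.75 against 15.9, 5.56 and 6.09 (-1.47 ± 0.37). The Jak2VF libraries were below the WT libraries in Mx1 and Cmpk2, without overlap. Epsti1 held 14.9, 12.0 and 10.8 CPM against 27.3, 18.9 and 20.8 (-0.83 ± 0.13, adjusted p = 0.000461), and Phf11d 6.11, 3.53 and 3.05 against 16.9, 6.72 and 7.54 (-1.30 ± 0.29). The other called members were Isg15, Oasl1, Oasl2, Ifi27l2a, Dhx58, Ifi204, Usp18, Zbp1, Parp9, Rtp4 and Rsad2, from -0.53 (Parp9) to -1.78 (Isg15). Vehicle and LDL shared 10 called members: Cmpk2, Dhx58, Epsti1, Ifi204, Ifit1, Ifit3, Mx1, Phf11d, Rsad2 and Usp18, which are 10 of 19 with vehicle and 10 of 20 with LDL.

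**Figure D4:**
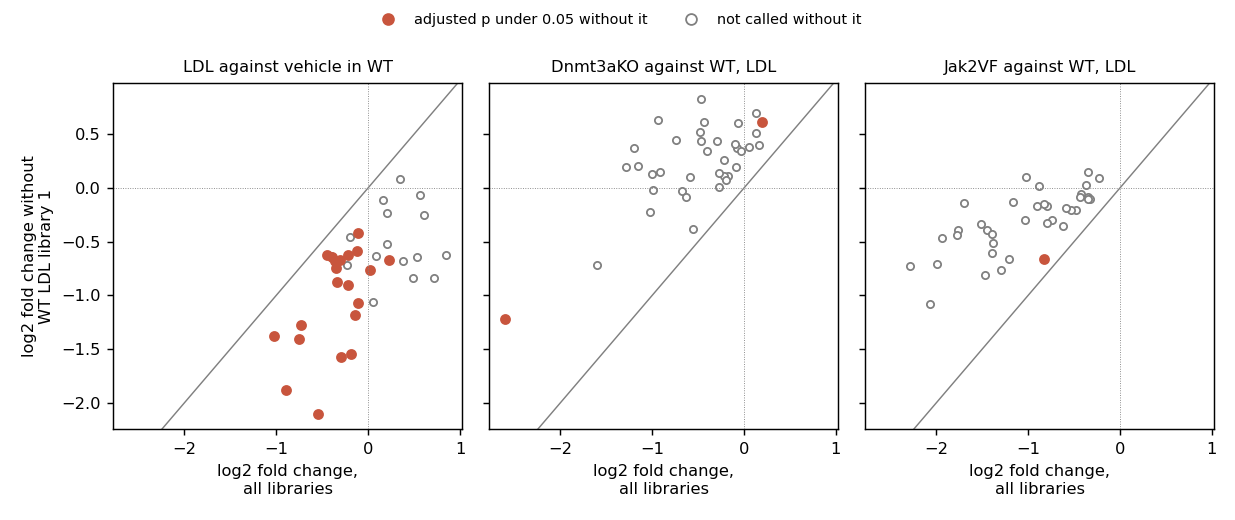
Log2 fold change of each member with all libraries (x axis) and without WT LDL library 1 (y axis) in 3 comparisons, filled red where the adjusted p is under 0.05 without it; the line marks equal values. Points for LDL in WT lie below the line, with 21 called, and points for both mutants lie above it, with 2 and 1 called. The library was picked for its high members, so the side of the line follows from that choice.

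Dnmt3aKO macrophages with vehicle also held less of the interferon-stimulated genes than WT. Of 37 members 8 fell, 0 rose and 29 did not pass, where 11.1% of all genes were called, 5.58% higher and 5.51% lower. The median log2 fold change was -0.59, and 33 members had every Dnmt3aKO library below every WT library, against 16.4% of all genes. The count was 2 to 8 when 1 library was left out (2 without Dnmt3aKO vehicle library 1) and 26 when only these groups were fitted, where 7.68% of all genes were lower. Neutrophil markers summed to 583 to 629 CPM against 162 to 223 in WT, with 7 of 8 called higher, 4 of 6 monocyte markers and 4 of 5 B cell markers were higher, and 0 of 9 macrophage markers were called with edgeR (2 at an unadjusted p under 0.05). Their part in the lower members was not tested.

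The genes that fell in Dnmt3aKO came from several families. Oasl1, an OAS-like protein that restrains translation of Irf7, held 1.72, 2.04 and 1.61 CPM against 8.51, 4.46 and 5.87 in WT (-1.81 ± 0.39, adjusted p = 0.00316). Ifi27l2a held 8.30, 10.4 and 9.92 against 44.7, 31.1 and 29.4 (-1.88 ± 0.48, adjusted p = 0.0112). Ifit2 held 15.9, 18.4 and 19.2 against 44.6, 29.6 and 44.0 (-1.14 ± 0.25, adjusted p = 0.00345). No library overlapped between the groups in these 3 genes. Cmpk2 held 6.82, 6.24 and 6.75 CPM against 19.4, 10.7 and 16.4 in WT (-1.23 ± 0.35, adjusted p = 0.0251), and Rsad2 11.9, 10.1 and 12.7 against 30.5, 16.5 and 32.5 (-1.20 ± 0.37, adjusted p = 0.0413). Oas2 held 16.4, 16.6 and 15.2 against 29.9, 27.6 and 38.2 (-0.99 ± 0.32, adjusted p = 0.0498). Smaller falls were those of Trim30a (65.7, 66.3 and 65.3 CPM, -0.59 ± 0.17) and Epsti1 (19.5, 22.7 and 22.5 CPM, -0.50 ± 0.13). The Dnmt3aKO vehicle libraries lay close together for each of these genes. Stat2 (-0.29 ± 0.20), Irf7 (-0.80 ± 0.48) and Irf9 (-0.23 ± 0.17) did not pass, and Isg20 had the only value above 0 (0.32).

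With LDL, 4 members were lower in Dnmt3aKO than in WT and 0 were higher, where 17.5% of all genes were called, 8.01% higher and 9.46% lower. This share of 4 in 37 is near the background. Ifi27l2a held 4.18, 6.66 and 4.36 CPM against 68.3, 10.9 and 13.1 in WT (-2.60 ± 0.50, adjusted p = 0.00112), so that no library overlapped. Oasl1 held 2.88, 3.37 and 3.18 against 18.2, 4.19 and 6.36 (-1.60 ± 0.38, adjusted p = 0.00588). Bst2 held 52.0, 70.8 and 49.4 against 214, 58.8 and 75.8 (-1.02 ± 0.33, adjusted p = 0.0388), and Epsti1 13.9, 16.5 and 15.1 against 27.3, 18.9 and 20.8 (-0.56 ± 0.13, adjusted p = 0.00566). Epsti1, Ifi27l2a and Oasl1 fell with vehicle as well. Without WT LDL library 1 the median turned from -0.44 to 0.26, with 30 of 37 members above 0, and Ifi27l2a stayed lower (-1.22, adjusted p = 0.0123) while Slfn5 was called higher (0.61, adjusted p = 0.0438). The count was 13 without WT LDL library 2, 8 without WT LDL library 3 and 0 when only these groups were fitted. Neutrophil markers were 417 to 460 CPM against 127 to 216 in WT, and their part was not tested.

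Jak2VF was also set against the other mutants with vehicle, in comparisons added after the data were seen. Against Tet2KO 13 members were lower and 0 higher, where 15.5% of all genes were called and 8.3% were lower. Epsti1 (-0.77 ± 0.13), Parp14 (-0.89 ± 0.21), Rsad2 (-1.66 ± 0.39) and Ifit2 (-1.05 ± 0.25) had the smallest adjusted p, and the count was 1 to 12 with 1 library left out. Against Dnmt3aKO 5 were lower and 0 higher, where 19.2% of all genes were called and 9.99% were lower: Cmpk2 (-1.31 ± 0.38), Parp14 (-0.65 ± 0.21), Dhx58 (-0.61 ± 0.21), Rsad2 (-1.16 ± 0.39) and Slfn5 (-0.65 ± 0.22). This share of 5 in 37 is near the background, and the count was 0 to 4 with 1 library left out (0 without Dnmt3aKO or Jak2VF vehicle library 1).

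Tet2KO against WT gave 1 called member in the main set and 0 in batch 1. With vehicle 0 of 37 members passed in the main set with edgeR (3 at an unadjusted p under 0.05, 1 called with DESeq2), where 5.47% of all genes were called, and the median was -0.17. Irf7 held 51.8, 29.9 and 31.7 CPM in Tet2KO against 48.5, 32.5 and 33.8 in WT, and Stat2 98.2, 73.7 and 74.1 against 88.8, 80.3 and 98.1. These groups overlapped, with Tet2KO vehicle library 1 the highest of its group for 35 members (32% of all genes). With LDL 1 member was lower, Phf11d, at 5.24, 4.32 and 4.90 CPM against 16.9, 6.72 and 7.54 (-1.11 ± 0.29, adjusted p = 0.0419), where 2.76% of all genes were called, 1.28% higher and 1.48% lower. Every Tet2KO library was below every WT library for 2 members (5.37% of all genes) and above for 0 (4.7%). Same-numbered libraries deviated together in that comparison, and with the number as a block 4 members were lower, where that fit called 20.7% of all genes and 9.66% lower, so this share is near the background. Without WT LDL library 1 the median moved from -0.60 to 0.10 and 0 were called, as without any of the 3 Tet2KO LDL libraries, while 8 were lower without WT LDL library 2 and 2 without library 3. Neutrophil markers summed to 35.3 to 43.9 CPM in Tet2KO vehicle libraries against 162 to 223 in WT, and 9 of 9 T and NK cell markers were higher (60.8 to 64.5 CPM against 28.8 to 30.2). Their part was not tested.

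In batch 1, 0 of 37 members passed with vehicle (2 at an unadjusted p under 0.05 with edgeR, 1 called with DESeq2), where 1.89% of all genes were called, and 0 with LDL (4 and 1), where 0.536% were called. With LDL the log2 fold change was above 0 for all 37, with a median of 0.79. Without Tet2KO LDL library 1 the median was 0.08, with 21 above 0 and 15 below. Both Tet2KO LDL libraries were above both WT LDL libraries for 14 members, against 18.3% of all genes: Irf7 held 300 and 85.7 CPM in Tet2KO against 64.5 and 48.6 in WT, and Ifi44 37.9 and 7.15 against 3.66 and 3.15. Library 1 was 1.5-fold or more above library 2 for 37 of 37 members in the Tet2KO LDL group, against 6.58% of all genes. Tet2KO vehicle library 3 was the lowest of its group for 37 members (35.6% of all genes), with Irf7 at 31.2 CPM against 99.9 and 265. WT vehicle library 3 was likewise the lowest of its group for 37 members (32.2% of all genes), with Irf7 at 37.1 CPM against 81.0 and 99.0. The Tet2KO libraries with low levels, vehicle 3 and LDL 2, held stromal markers at 3280 and 3040 CPM, against 594 to 700 in the others, and neutrophil markers at 15.6 and 21.4 against 41.0 to 62.2. WT vehicle library 3 held stromal markers at 687 CPM against 445 and 385, and neutrophil markers at 99.3 against 89.4 and 79.4. Their part was not tested.

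The difference of batch 1 from the main set in Tet2KO against WT was added after the data were seen. With LDL it was above 0 for 37 of 37 members, at a median of 1.41, and 1 passed, where 1.51% of all genes were called. Oasl1 held 22.8 and 10.3 CPM in Tet2KO against 5.04 and 2.50 in WT in batch 1, and 6.28, 4.35 and 5.62 against 18.2, 4.19 and 6.36 in the main set (difference 3.05 ± 0.70 on the log2 scale, adjusted p = 0.0265). Without Tet2KO LDL library 1 of batch 1 the median was 0.46 with 0 called, and without WT LDL library 1 of the main set 0.78 with 0 called. With vehicle 0 of 37 passed (3 at an unadjusted p under 0.05 with edgeR, 1 with DESeq2), where 3.81% were called.

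LDL itself moved few members in the main set, and with all groups in the fit those called were lower. The share called lower was above that of all genes in Tet2KO alone. Some other fits called members higher in WT and Dnmt3aKO, up to 6 and 10 with replicate blocks. Those counts stand here without the share of all genes called and are not results about the members. In WT 2 of 37 fell and 0 rose, where 14.2% of all genes were called, 6.67% higher and 7.58% lower. Ifit2 held 27.8, 17.1 and 12.9 CPM with LDL against 44.6, 29.6 and 44.0 with vehicle (-1.03 ± 0.25, adjusted p = 0.00648), and Epsti1 27.3, 18.9 and 20.8 against 32.8, 28.3 and 30.7 (-0.45 ± 0.13, adjusted p = 0.0198). Neither overlapped between the groups. Irf7 (0.85 ± 0.48), Irf9 (0.16 ± 0.17) and Stat2 (-0.35 ± 0.20) did not pass. Without WT LDL library 1 the median moved from -0.14 to -0.68, and 36 of 37 members were below 0. In that fit 21 were called lower, with Ifit3 at -2.10, Mx1 at -1.88 and Stat2 at -0.75. The library was left out for its high members, so this direction follows from the choice and does not test LDL. The share of all genes called in that fit is not given here. Without WT LDL library 2, 3 were higher and 1 lower. Neutrophil markers, of which 4 of 8 fell with LDL in WT, were 127 to 216 CPM with LDL and 162 to 223 with vehicle, and their part was not tested.

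In Tet2KO 6 of 37 members fell with LDL and 0 rose, where 16.8% of all genes were called, 8.59% higher and 8.21% lower. The 6 held lower values in every LDL library than in any vehicle library. Ifit2 held 10.2, 13.8 and 14.2 CPM with LDL against 35.3, 24.0 and 20.7 (-1.07 ± 0.26, adjusted p = 0.00531), and Ifit3 6.34, 5.43 and 10.3 against 34.1, 16.8 and 18.1 (-1.66 ± 0.57, adjusted p = 0.0483). Mx1 held 1.22, 2.21 and 3.31 against 12.7, 6.26 and 4.66 (-1.84 ± 0.52, adjusted p = 0.0171), and Rsad2 5.27, 6.41 and 10.3 against 24.4, 12.6 and 11.7 (-1.17 ± 0.39, adjusted p = 0.0421). Stat2 held 44.4, 53.1 and 56.7 CPM against 98.2, 73.7 and 74.1 (-0.67 ± 0.20, adjusted p = 0.0222), and Epsti1 21.3, 20.5 and 21.8 against 32.1, 27.7 and 31.8 (-0.53 ± 0.13, adjusted p = 0.00668). In all, 18 members had no overlap in this direction, against 15% of all genes. The count was 2 without Tet2KO vehicle library 1 or LDL library 1. Of 6 monocyte markers 4 fell with LDL in Tet2KO (269 to 335 CPM against 570 to 657), and their part was not tested.

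In Dnmt3aKO and Jak2VF 1 member fell with LDL in each, Epsti1, where 15.4% of all genes were called in Dnmt3aKO (6.41% higher, 8.96% lower) and 18.2% in Jak2VF (8.44% higher, 9.72% lower). It held 13.9, 16.5 and 15.1 CPM against 19.5, 22.7 and 22.5 in Dnmt3aKO (-0.51 ± 0.13, adjusted p = 0.00921) and 14.9, 12.0 and 10.8 against 17.5, 19.9 and 16.3 in Jak2VF (-0.51 ± 0.13, adjusted p = 0.00917). The median over the members was 0.12 in Dnmt3aKO and -0.08 in Jak2VF. Over the alternative fits Epsti1 stayed called for LDL in 6 of 13 in WT and 12 of 13 in Tet2KO. It stayed called in 10 of 12 in Dnmt3aKO and 10 of 12 in Jak2VF. In Dnmt3aKO 5 members had every LDL library above every vehicle library (19.8% of all genes) and 4 below (23.1%), and in Jak2VF 5 were below (16.5%). In Dnmt3aKO a fit of these groups alone called 6 higher and 4 lower, where 31.6% of all genes were called, with a median of 0.14. Neutrophil markers fell with LDL in both, 6 and 7 of 8, and their part was not tested. Interaction terms asked whether the LDL effect differed from that in WT. With edgeR 0 of 37 passed in Dnmt3aKO, Tet2KO and Jak2VF, with 3, 1 and 4 at an unadjusted p under 0.05 and 0, 0 and 1 called by DESeq2, where 0.432%, 0.103% and 2.47% of all genes were called. Ifit2 had the smallest p in Dnmt3aKO (1.12 ± 0.35, adjusted p = 0.166) and Jak2VF (1.17 ± 0.36, adjusted p = 0.0727). Without WT LDL library 1 the median interaction moved from 0.17 to 0.88 in Dnmt3aKO, from -0.33 to 0.30 in Tet2KO and from -0.04 to 0.61 in Jak2VF. It was then above 0 for 36, 34 and 34 members, and 1 was called, Ifit2 in Jak2VF (1.51, adjusted p = 0.0415). In batch 1 LDL left 0 of 37 members called in WT and 0 in Tet2KO, where 0 of all 15481 genes were called in either. In each, 0 had an unadjusted p under 0.05 with edgeR and 0 were called by DESeq2. The median was -0.40 in WT, with all 37 below 0, and 0.08 in Tet2KO, with 26 above 0 and 11 below. With 0 genes called at all, 0 called members do not show that LDL left them unchanged.

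**Figure D5:**
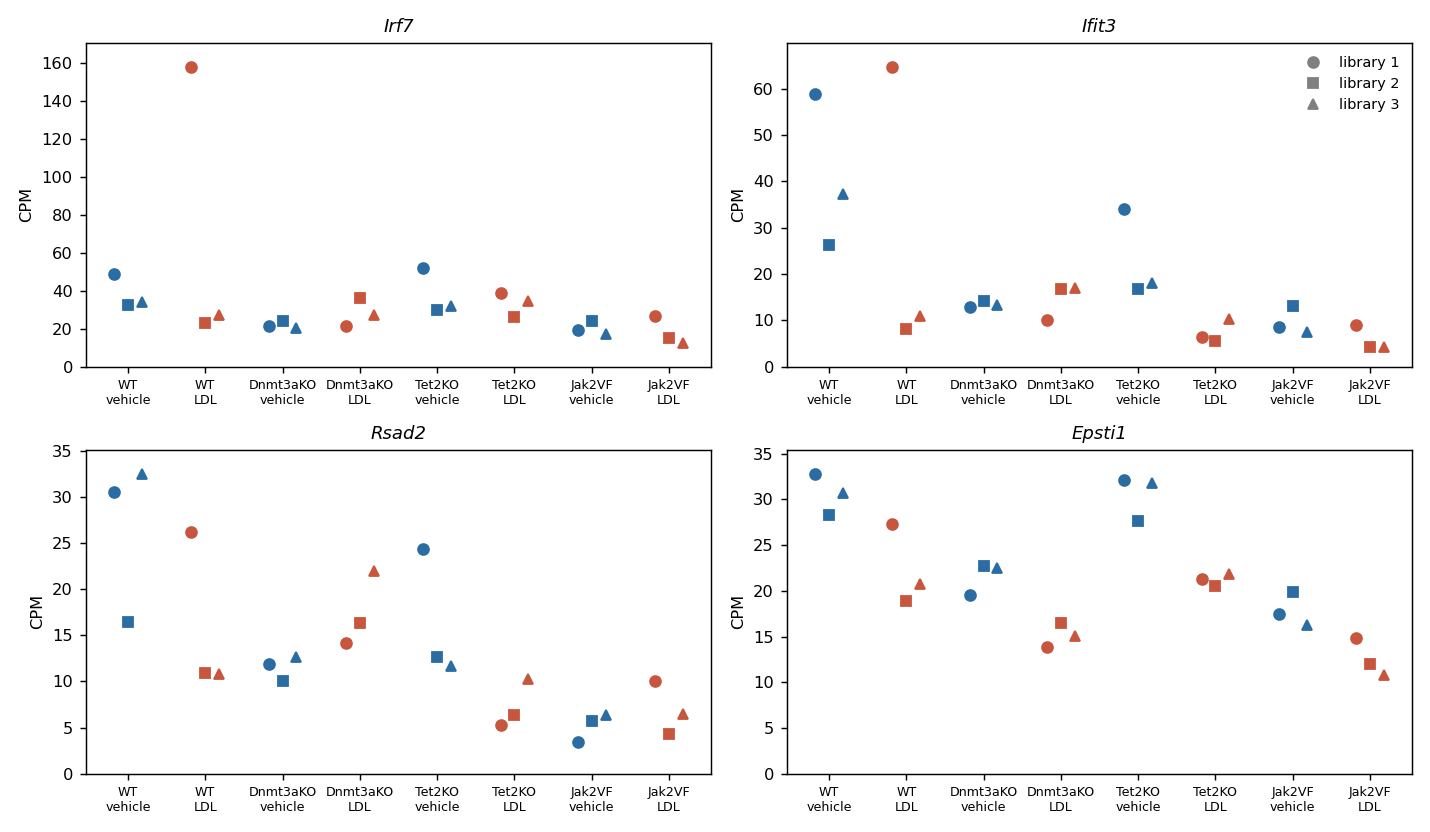
CPM (y axis, from 0) of Irf7, Ifit3, Rsad2 and Epsti1 in each library of the main set, blue with vehicle and red with LDL, the symbol giving the library number. Irf7 reaches 158 CPM in WT LDL library 1, while Epsti1, which spread least, is lower with LDL in all 4 genotypes.

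Genes upstream of the members came from lists of ligands, receptors and adaptors. Interferon genes were near 0: of 20 in the main set none exceeded 3 counts in any library, Ifnb1 included (at 0 in 18 of 24 libraries, and 0.0835 CPM at most). WT LDL library 1 and Dnmt3aKO LDL library 1 held this highest value of Ifnb1, each from at most 3 counts. Libraries cannot be ranked at such counts, and the part of the interferon genes in the members' levels was not tested. Siglech, a marker of plasmacytoid dendritic cells, which make much interferon, was at most 0.134 CPM. The summed markers of these cells, Siglech among them, were nevertheless 27.9 to 45 CPM in the main set. Klk1 of that list was at 0 in 14 of 24 libraries, while Ccr9, Cox6a2, Pacsin1, Runx2 and Ly6d were at 0 in none. Neither Siglech alone nor the sum shows whether such cells were present. Of 8 receptors and kinases 4 were higher in Dnmt3aKO with vehicle, where 5.58% of all genes were, Ifnar2 (0.28) and Ifngr1 (0.40) among them. In Jak2VF with vehicle Il10rb (-0.42) and Tyk2 (-0.27) were lower and Ifnlr1 (1.01) higher. Ifnar2 rose with LDL in WT (0.65, adjusted p = 8.32e-06), Dnmt3aKO (0.51), Tet2KO (0.43) and Jak2VF (0.26).

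Of the transcription factors outside the members, Irf2 (-0.29) was lower in Jak2VF with vehicle. Of 16 sensors and adaptors 5 were lower in Jak2VF with vehicle, where 5.26% of all genes were, led by Tlr7 (-0.74), an RNA-sensing receptor, and Mb21d1 (-0.73), which encodes the DNA sensor cGAS. In Dnmt3aKO with vehicle 3 were higher (5.58% of all genes) and 1 was lower (5.51%), Tmem173 (-0.37), which encodes STING. Of 11 tested restraints of signalling, Socs3 was higher in Dnmt3aKO (0.74) and Jak2VF (0.45) with vehicle, while Adar (-0.58) and Samhd1 (-0.29) were lower in Jak2VF.

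Other interferon-stimulated genes formed a list of their own. Of 53 tested, 23 were lower and 0 higher in Jak2VF with vehicle, where 5.26% and 4.29% of all genes were, led by Trim21 (-0.70), Dtx3l (-0.75), Zc3hav1 (-0.47) and Trim34a (-0.74). In Dnmt3aKO 6 were lower with vehicle (5.51% of all genes), led by Gm4951 (-2.96). In Tet2KO against WT 1 was higher with vehicle, Ms4a4c (1.31), where 2.76% of all genes were. With LDL in Tet2KO, where 8.21% of all genes fell and 8.59% rose, 14 fell, Ifi203 (-1.63) and Dtx3l (-0.65) among them, and 2 rose, one of them Ifitm3 (1.23). Of 18 tested targets of interferon gamma, 11 fell with LDL in Tet2KO, against the same 8.21% of all genes, led by Ciita (-1.76), the regulator of class II genes, and H2-Aa (-1.46). In Tet2KO with vehicle 4 of these were higher than in WT (2.76% of all genes), and in Jak2VF with vehicle H2-Eb1 (1.02) and H2-Aa (0.81) were higher while Irgm2 (-0.67) and Iigp1 (-1.01) were lower.

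Outside the members and these lists, the genes whose deviations from the group mean were most like the mean of the members over the 24 libraries of the main set were Ifi206 (r = 0.95), Gm12250 (0.95), Ifi213 (0.94), Apol9a (0.94), Ifi211 (0.93), Apol9b (0.91), Gbp6 (0.90), Stambpl1 (0.90), Mitd1 (0.89) and Treml2 (0.85). Ifi206 held 7.40, 0.881 and 1.18 CPM in WT LDL libraries 1 to 3, and Gm12250 12.9, 4.54 and 5.08. Both were highest in the library in which the members were highest. Depth differed between the 24 libraries, and these values are a description.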

How the data were processed

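The authors deposited 2 tables of read counts, whole numbers per gene and library, for the main set (24 libraries) and batch 1 (10), all used, with 0 columns left out. The file names call them normalized, but values are gapless whole numbers and size factors follow the totals, so they were tested as raw counts. The submitters' processing notes name the build mm10. No aligner, counter or strand setting is given in the sources used here, so near copies and antisense genes are uncertain. Libraries were labelled polyA RNA.

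Genes with at least 10 counts in 3 libraries (2 in batch 1) were tested, 19444 and 15481, holding 99.9% of counts in each set. Counts were scaled by TMM and tested with the edgeR quasi-likelihood test (edgeR 4.0.16, R 4.3.3), with 1 mean per group, all groups of a set in the fit, two-sided p and Benjamini-Hochberg adjustment over all genes tested in a comparison. The difference between the sets used 1 fit over shared genes. Errors are standard errors (SE). The common biological coefficient of variation was 0.137 in the main set and 0.199 in batch 1. In simulated sets of 19444 genes (main set) and 15481 (batch 1), a random sample of genes above a level minimum was changed. Each gene varied on its own. Changes of 1.5-fold and 2-fold were recovered in 66% and 98% of the changed genes for LDL in WT in the main set. The shares were 28% and 62% for Tet2KO against WT with vehicle in batch 1. Nearly all members spread more than the median gene and they varied together, so these shares do not give the recovery for members.

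The members and lists were chosen with earlier results of these data known. Named with values per library were, per comparison, up to 8 called members by smallest adjusted p, the 4 highest and 4 lowest per kilobase (GENCODE M21 exon length), the 4 with the largest and smallest spread, and Stat2, Irf7 and Irf9. From each pathway list up to 4 called genes were named, beside Ifnb1. The results of 1 gene of these lists are not reported here. Members beyond this rule are named to account for all 37. Ifit2 in the interactions, and Csf1r, Adgre1, Gfap and Siglech, were chosen after their values were seen. Replicate numbers were checked for pairing by the correlation of same-numbered libraries' deviations from their group means. In Tet2KO against WT with LDL (main set, number in the title) it was 0.50 to 0.72 over 3 pairs, and no other comparison had every pair above 0.1 with 3 or more pairs. Alternatives were DESeq2 1.42.0, RLE scaling, no count filter, fits of only the groups compared, replicate blocks, and leaving out libraries.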

Additional observations from a re-analysis of the deposited data

Results flagged for a closer look

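Oasl1 differed between the sets in Tet2KO against WT with LDL: the log2 fold change was higher by 3.05 ± 0.70 in batch 1 than in the main set (adjusted p = 0.0265, 1 of 37 members), by a test of the difference itself. Both Tet2KO libraries were above both WT libraries in batch 1, while in the main set WT LDL library 1 was above every Tet2KO library. Over the alternatives the difference ran from 2.19 to 3.53, and the adjusted p reached 0.276. What separates the sets was not tested.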

How the results depend on the processing

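Counts of called members moved by over 1.5 times under many settings, and the cause was not tested. With no count filter they were 7, 4, 18 and 3 for LDL in WT, Dnmt3aKO, Tet2KO and Jak2VF, 20 and 15 for Dnmt3aKO against WT with vehicle and LDL, 5 and 15 for Tet2KO, 31 for Jak2VF with vehicle, 2 and 5 for the interactions of Dnmt3aKO and Jak2VF, and 9 and 26 for Jak2VF against Dnmt3aKO and Tet2KO. With only the groups compared they were 0 for LDL in WT, 10 in Dnmt3aKO (6 higher) and 3 in Jak2VF, 26 and 0 for Dnmt3aKO against WT with vehicle and LDL, 1 and 0 for Tet2KO, 0 for Jak2VF with LDL, 13 and 23 for Jak2VF against Dnmt3aKO and Tet2KO, and 0 for the difference of the sets with LDL. With DESeq2 they were 2 for LDL in Jak2VF, 1 and 3 for Tet2KO against WT with vehicle and LDL, 1 for the Jak2VF interaction, 1 and 1 for Tet2KO in batch 1, and 1 and 9 for the difference of the sets with vehicle and LDL. The title number as a replicate block gave 4 for LDL in WT, 14 in Dnmt3aKO (10 higher) and 4 in Jak2VF. Against WT with vehicle and LDL it gave 24 and 0 for Dnmt3aKO, 5 and 4 for Tet2KO, and 34 and 0 for Jak2VF. For Jak2VF against Dnmt3aKO and Tet2KO it gave 13 and 2. In batch 1 it gave 16 for LDL in WT (16 lower) and 2 for Tet2KO against WT with vehicle (2 higher). The description number as a replicate block gave 9 for LDL in WT (6 higher), 11 in Dnmt3aKO (10 higher), 12 in Tet2KO and 0 in Jak2VF, 23 for Dnmt3aKO against WT with vehicle, 5 and 6 for Tet2KO, 34 for Jak2VF with vehicle and 2 for Jak2VF against Tet2KO. The blocks changed calls elsewhere too. Outside Tet2KO against WT with LDL, same-numbered libraries deviated together in some pairs and not in others. In Jak2VF against WT with vehicle the correlation was 0.6, 0 and 0.62 for libraries 1 to 3. With LDL it was -0.28, -0.63 and 0.09 by title number. Whether such libraries share more than a number is not in the labels. No paired fit was made for the difference of the sets. The share of all genes called moved with the fit too, and counts given here without that share are not results about the members. For LDL in Dnmt3aKO it was 34.1% with the title block and 31.6% with only the groups compared, against 15.4%, so 14 and 10 of 37 are near it. For Jak2VF against WT with vehicle it was 30.3% with either block, 4.31% with only the groups compared and 3.11% with no count filter, against 9.55%. For Dnmt3aKO against WT with vehicle it was 11.5%, 15.1% and 4% (title block, only the groups, no filter), and for LDL in Tet2KO 5.93% with no filter. Without both LDL libraries with higher Gfap counts were 0 for LDL in WT, 7 for Dnmt3aKO against WT with LDL and 0 for Tet2KO. With 1 library left out in turn counts ran from 1 to 21 for LDL in WT, 0 to 1 for LDL in Dnmt3aKO, 2 to 7 for LDL in Tet2KO, 0 to 2 for LDL in Jak2VF, 2 to 8 for Dnmt3aKO against WT with vehicle, 2 to 13 for Dnmt3aKO against WT with LDL, 0 to 1 for Tet2KO against WT with vehicle and 0 to 8 for Tet2KO against WT with LDL. They ran from 6 to 14 for Jak2VF against WT with vehicle, 1 to 29 for Jak2VF against WT with LDL, 0 to 3 for the Jak2VF interaction, 0 to 4 for Jak2VF against Dnmt3aKO, 1 to 12 for Jak2VF against Tet2KO, 0 to 1 for Tet2KO against WT with vehicle in batch 1, 0 to 1 for the difference of the sets with vehicle and 0 to 3 for the difference with LDL. In batch 1 this leaves 1 library in an LDL group, assumed to vary like the others. Of 503 alternatives of 40 named member results, 384 stayed called, 119 did not and 0 changed sign, and 9 results stayed called throughout. In simulated data 66% of 1.5-fold changes in a random sample of genes were recovered for LDL in WT in the main set. The share was 28% for Tet2KO against WT with vehicle in batch 1. Depth was not varied, and these shares do not give the recovery for members.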
